A study of Mus musculus with 27 samples.

Results

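Atp1b1, Fxyd2, Slc9a3 and Slc4a4 are 4 genes of sodium transport in the kidney tubule, and their RNA was followed in mouse kidneys over 9 lengths of warm ischemia. The genes were chosen by name as the rows of the deposited table with these symbols, so 4 of the 19392 listed genes are described, and all 4 passed the filter on low values. The kidneys came from 27 C57BL/6 mice, 3 at each ischemia time of 0, 16, 18, 20, 22, 24, 26, 28 and 30 min. In the uIRIx model the right kidney was removed and the pedicle of the left kidney was clamped, and the left kidney was taken 24 h later. The sham mice were the 0 min group, which the study lists among the groups of that model. Their operation is not described separately, so that they had also lost the right kidney is read from the protocol. No other allele or agent is named, and the age of the mice is not given in the sources used here. Each replicate was the kidney of 1 mouse, and the study compared ischemia times to grade the injury from mild to severe.

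The sodium pump moves sodium out of tubule cells across their basolateral membrane and so drives most of the reabsorption done by the nephron. It works only as a complex that includes a beta subunit, of which Atp1b1 encodes a form found in the kidney. Fxyd2 encodes the gamma subunit, a small membrane protein that tunes how the pump binds its ions. Slc9a3 encodes NHE3, the exchanger of the apical membrane that takes up filtered sodium in return for protons in the proximal tubule. Slc4a4 encodes NBCe1, the cotransporter that passes sodium and bicarbonate out of the same cells into the blood.

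Levels are given in FPKM, which divides the fragments of a gene by its length and by the reads of the library and so puts long and short genes on 1 scale. No counts came with it. The depth is therefore unknown, and the SD given with a level is the spread between the 3 kidneys of a time. Summed over all genes, FPKM came to 512453 in the lowest kidney and 554036 in the highest. Markers of the nephron were present in the sham kidneys, with a summed level of 3521 FPKM for 7 proximal tubule genes and 1765 FPKM for 4 genes of the thick ascending limb, and no marker of any list was at 0 in all kidneys. Some kidneys stood apart from the others of their time, and 2 of them are followed through the results. At 30 min, replicate 3 had a thick ascending limb sum of 2254 FPKM, against 536.4 and 529.5 in the other 2 kidneys, and at 16 min, replicate 3 had the sham level of Slc4a4 that is given below. Others differed from their group as well. Replicate 1 at 16 min and replicate 3 at 20 min had 172% and 169% of the sham sum of collecting duct markers. Replicate 3 at 26 min had 60.6% of that of proximal tubule markers. Where leaving out either of the 2 followed kidneys changed a call of the 4 genes, this is given below. Ranges for calls that any kidney changed are given at the end. In whole kidney RNA, fewer cells of a type and less RNA per cell cannot be told apart.

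At 0 min the 4 genes spanned a wide range of levels. Fxyd2 was at 3378 ± 406 FPKM (SD, n = 3) and ranked 5 among all genes by its sham mean, and Atp1b1 was at 1175 ± 63.2 FPKM and ranked 27. Slc4a4 was at 103 ± 2.13 FPKM (rank 849) and Slc9a3 at 25.6 ± 0.965 FPKM (rank 3124). Both pump subunits were therefore more abundant than the exchanger and the cotransporter in every sham kidney. All 4 were lower on average at 28 and 30 min than at 0 min, but they got there by different paths. In FPKM from 16 to 26 min, Atp1b1 lay above every sham kidney in 16 of 18 kidneys. Slc4a4 lay below every sham kidney in 17 of 18 and Slc9a3 in 14 of 18. Fxyd2 lay above every sham kidney in 11 of 18 and below in 1. These counts rest on 3 shams and only describe the 4 genes. The share of all genes outside their sham range was not worked out.

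**Figure D1:**
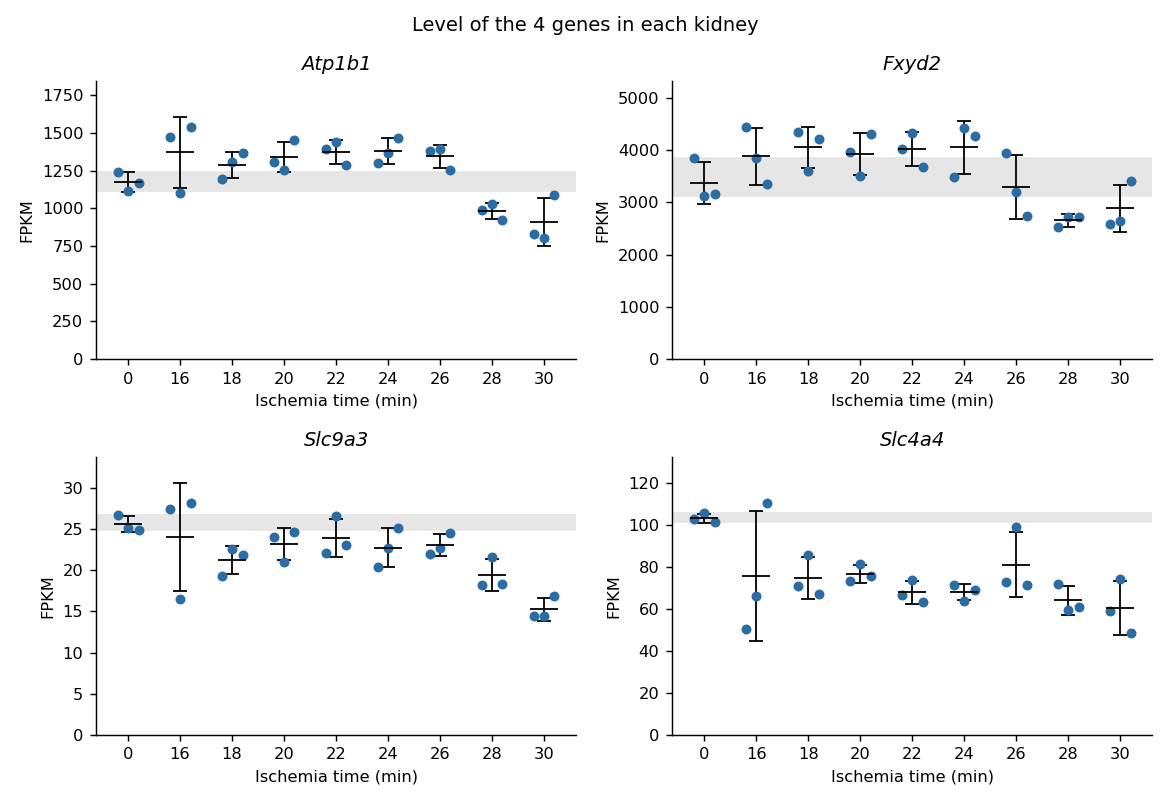
Level of each gene in FPKM (vertical axes, from 0) against ischemia time in min, with the 9 times equally spaced. Points are kidneys, horizontal marks are means with SD (n = 3), and the grey band is the range of the 3 sham kidneys; all 6 kidneys at 28 and 30 min lie below the band for Atp1b1, Slc9a3 and Slc4a4, and 5 of 6 for Fxyd2.

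Changes were tested on log2(FPKM + 1) in limma, fitted over the 18188 genes with a value above 0 FPKM in 3 or more kidneys, with adjusted p-values by the method of Benjamini and Hochberg over all of them. As in the study, values were first quantile normalized, a step that gives all kidneys the same distribution by replacing each value with the mean of the values of that rank. Because that step bears strongly on one of these genes, the value without it is printed beside each result it moves. A fold change is on the log2(FPKM + 1) scale. A gene passes at an adjusted p-value under 0.05, and a DEG also has an absolute log2 fold change above 1.

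Atp1b1, the beta subunit, lies on chromosome 1 from 164437109 to 164458355 on the minus strand (GRCm38, GENCODE annotation). The 3′ end of the gene overlaps Nme7 on the opposite strand, and whether the counting used strand is not given in the sources used here, so reads of that stretch may be shared. RefSeq gives the 250 bases before its transcription start at chr1:164458356-164458605 (GRCm38.p6, minus strand), printed 5′ to 3′ to show the promoter of the subunit that moved most clearly between 26 and 28 min. Capitals mark a pair of GC boxes, GGGCGG, read on the opposite strand, and a CCAAT box, also on the opposite strand.
Atp1b1 promoter: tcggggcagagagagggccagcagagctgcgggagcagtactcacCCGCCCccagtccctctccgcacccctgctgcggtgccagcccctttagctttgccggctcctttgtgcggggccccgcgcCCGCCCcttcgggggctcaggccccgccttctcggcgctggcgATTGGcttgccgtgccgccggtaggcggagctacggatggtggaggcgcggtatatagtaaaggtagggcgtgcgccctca
The GC boxes start 205 and 124 bases before the start site and the CCAAT box 81 bases before it. Among 32851 promoters of this length, searched on both strands, 32.7% held GGGCGG and 33.8% held CCAAT.

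The sham kidneys held Atp1b1 at 1241, 1115 and 1169 FPKM. At 16 min the kidneys held 1473, 1103 and 1537 FPKM, and at 18 min 1195, 1306 and 1365 FPKM. These kidneys overlapped the sham range, with replicate 2 the low one at 16 min. At 20 min the values were 1308, 1257 and 1451 FPKM, at 22 min 1393, 1443 and 1287 FPKM, and at 24 min 1302, 1364 and 1470 FPKM. At 26 min they were 1383, 1394 and 1258 FPKM. In FPKM each kidney from 20 to 26 min was above all shams, at means of 114% to 117% of the sham mean. After quantile normalization replicate 2 at 20 min and replicate 3 at 22 min lay within the sham range. Replicate 1 at 24 min then equalled the highest sham. No difference passed at these times, with log2 fold changes of 0.10 to 0.16 (standard error 0.13) and adjusted p-values from limma of 0.40 to 0.63. Without quantile normalization these 4 log2 fold changes were 0.19 to 0.23 with adjusted p-values of 0.14 to 0.26.

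At 28 min Atp1b1 was at 988.8, 1028 and 923.5 FPKM, a mean of 980.0 ± 52.7 FPKM (SD, n = 3) against 1345 ± 75.8 FPKM at 26 min. Every 28 min kidney lay below every 26 min kidney and below every sham. Atp1b1 fell between 26 and 28 min by 0.52 on the log2 scale (standard error 0.13, adjusted p = 0.0096 in limma), or by 0.46 (adjusted p = 0.0077) without quantile normalization. The call was lost without replicate 3 of the 28 min kidneys, where the value was -0.43 (adjusted p = 0.061). Against 0 min the log2 fold change at 28 min was -0.36 (adjusted p = 0.030), and it did not pass without quantile normalization, at -0.26 (adjusted p = 0.063). It was also lost without replicate 1 of the sham kidneys (-0.31, adjusted p = 0.10) and without replicate 3 of the 28 min kidneys (-0.27, adjusted p = 0.15).

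At 30 min Atp1b1 was at 828.0, 801.5 and 1090 FPKM, a mean of 906.6 ± 160 FPKM or 77.2% of the sham mean. Replicate 3 was the high one, and all 3 kidneys were below all shams. Against 0 min Atp1b1 fell by 0.52 (standard error 0.13, adjusted p = 0.0026 in limma), or by 0.39 (adjusted p = 0.0067) without quantile normalization. Without replicate 3 the log2 fold change was -0.70 (adjusted p = 3.6e-05). In order of mean level the times ran 24, 22, 16, 26, 20, 18, 0, 28 and 30 min. Each neighbour in that order overlapped the next except 0 and 28 min.

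Fxyd2, the gamma subunit, lies on chromosome 9 from 45399669 to 45410278 on the plus strand (GRCm38). The sham kidneys held 3846, 3125 and 3162 FPKM, with replicate 1 the high one. At 16 min Fxyd2 was at 4438, 3854 and 3359 FPKM, at 18 min at 4351, 3609 and 4212 FPKM, and at 20 min at 3970 (replicate 1), 3499 and 4303 FPKM. At 22 min it was at 4033, 4337 and 3684 FPKM and at 24 min at 3482, 4422 and 4270 FPKM. Means from 16 to 24 min were 115% to 120% of the sham mean, and at each of these times the kidneys overlapped the shams. The 26 min kidneys spread from 2748 to 3954 FPKM around a mean of 3301 ± 609 FPKM (SD, n = 3). At 28 min the values were 2521, 2721 and 2728 FPKM, all below every sham and at 78.6% of the sham mean. At 30 min they were 2594, 2653 and 3410 FPKM, so that replicate 3 again was the high one and lay within the sham range.

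For Fxyd2 the direction of the change from 0 min depended on the normalization. Without quantile normalization its log2 fold changes at 16, 18, 20, 22 and 24 min were 0.20, 0.27, 0.22, 0.25 and 0.26 (standard error 0.14), and none passed, with adjusted p-values from limma of 0.17 to 0.35. After quantile normalization the same comparisons gave -0.36, -0.47, -0.22, -0.47 and -0.47 (standard error 0.15), and those at 18, 22 and 24 min passed as lower with adjusted p-values of 0.026 to 0.027. Without replicate 3 of their time, the normalized comparisons at 16 and 20 min passed as lower too. At 26 min the pair of values was -0.04 (adjusted p = 0.87) without and -0.59 (adjusted p = 0.0058) with the step. The FPKM of Fxyd2 averaged above the shams at each time from 16 to 24 min, so no fall of Fxyd2 is read from the calls at these times. Each call at 18, 22 and 24 min was also lost without replicate 1 of the sham kidneys (-0.33, adjusted p = 0.15) and without any 1 of the 3 kidneys of its own time.

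The rank of Fxyd2 within a kidney moved with these values. It ranked 4 or 5 in the sham kidneys, and 6 in all 9 kidneys at 18, 22 and 24 min, where its FPKM was on average higher. It ranked 9 or 10 at 28 min and 11 or 12 at 30 min. Quantile normalization assigns the shared value of the rank, and the shared values lay far apart at the top of the distribution, at 12.68 for rank 4, 12.26 for rank 5 and 11.94 for rank 6 on the log2 scale. At ranks 27 and 28, near Atp1b1, neighbouring shared values were 0.025 apart. Normalization raised the mean of Fxyd2 by 0.69 on the log2 scale in the sham kidneys and changed it by -0.42 at 30 min. For the other 3 genes the shift of a group mean lay between -0.07 and 0.08.

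**Figure D2:**
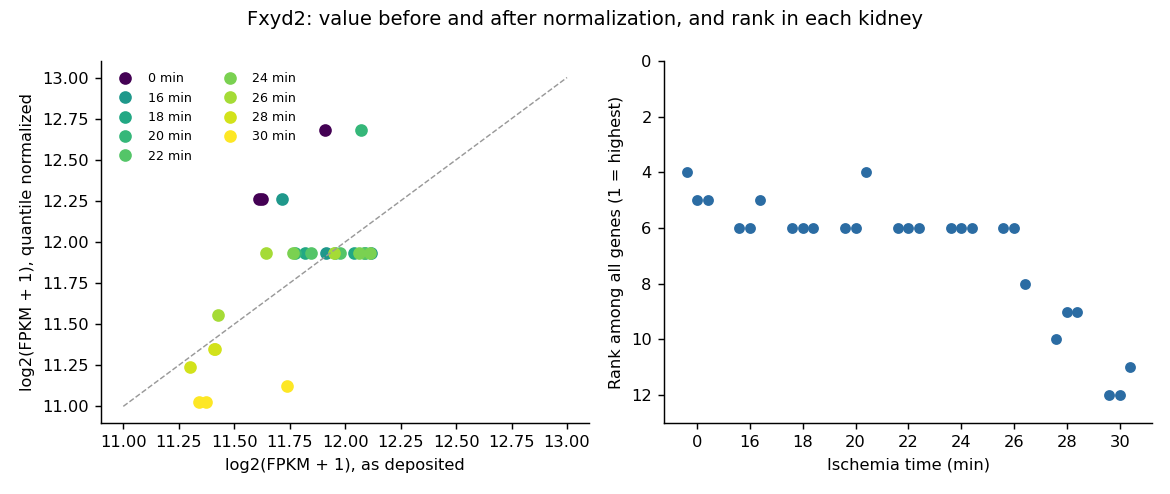
Left, log2(FPKM + 1) of Fxyd2 in each kidney as deposited (horizontal axis) and after quantile normalization (vertical axis), coloured by ischemia time, with a dashed line where both are equal. Right, rank of Fxyd2 among all genes of each kidney (1 is the highest) against ischemia time in min; kidneys with the same rank share 1 normalized value, so ranks of 6 at 18, 22 and 24 min line up at 11.94.

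At the longest times both scales put Fxyd2 below sham. At 28 min limma gave -1.09 (standard error 0.15, adjusted p = 6.9e-06), which made it a DEG, and without quantile normalization it was -0.34 (standard error 0.14, adjusted p = 0.0498). At 30 min the value was -1.34 (adjusted p = 3.4e-07), again a DEG, but -0.23 (adjusted p = 0.18) without the step. Leaving out replicate 3 of the 30 min kidneys as well gave -0.36 (adjusted p = 0.048), an alternative chosen after the data were seen. Between 26 and 28 min Fxyd2 had a log2 fold change of -0.50 (adjusted p = 0.027), and of -0.30 (adjusted p = 0.15) without quantile normalization. Even with it, the call was lost without replicate 1 or 2 at 26 min and without replicate 1, 2 or 3 at 28 min, at adjusted p-values of 0.054 to 0.10. The 28 min kidneys, up to 2728 FPKM, were below the lowest 26 min kidney at 2748 FPKM by less than the spread within either group. In order of mean FPKM the times ran 24, 18, 22, 20, 16, 0, 26, 30 and 28 min, and in FPKM each overlapped the next.

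Slc9a3 lies on chromosome 13 from 74121457 to 74169442 on the plus strand (GRCm38). The 250 bases before its RefSeq start are at chr13:74121163-74121412 (GRCm38.p6, plus strand). They are shown because in FPKM Slc9a3 was the one gene of the 4 whose 28 and 30 min kidneys did not overlap. After quantile normalization those of Fxyd2 did not overlap either, at 11.24 to 11.35 and 11.03 to 11.13 on the log2 scale. Capitals mark GC boxes, 2 read on the gene's own strand and 1 on the other.
Slc9a3 promoter: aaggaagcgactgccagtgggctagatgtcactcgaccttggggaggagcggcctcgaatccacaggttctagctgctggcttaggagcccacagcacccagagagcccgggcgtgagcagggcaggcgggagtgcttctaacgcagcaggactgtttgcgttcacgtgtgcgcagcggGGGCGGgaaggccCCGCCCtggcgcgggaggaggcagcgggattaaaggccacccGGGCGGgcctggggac
The GC boxes start 71, 58 and 16 bases before the start site.

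The sham kidneys held Slc9a3 at 26.7, 25.2 and 24.9 FPKM, a narrow range. At 16 min the kidneys held 27.4, 16.5 and 28.2 FPKM, with replicate 2 far below the other 2. The 15 kidneys from 18 to 26 min held 19.3 to 26.6 FPKM, with means of 83.0% to 93.4% of sham. In FPKM all kidneys were below all shams at 18, 20 and 26 min, and not at 22 and 24 min. None of the 6 differences from 16 to 26 min passed, with log2 fold changes of -0.34 to -0.18 (standard error 0.14) and adjusted p-values from limma of 0.085 to 0.39. Without replicate 2 the difference at 16 min was 0.04.

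At 28 min Slc9a3 was at 18.2, 21.6 and 18.3 FPKM and at 30 min at 14.4, 14.5 and 16.9 FPKM. Against 0 min it fell by 0.52 on the log2 scale at 28 min (standard error 0.14, adjusted p = 0.0054 in limma) and by 0.80 at 30 min (adjusted p = 9.2e-05). Without quantile normalization the values were -0.39 (adjusted p = 0.026) and -0.71 (adjusted p = 2.1e-04). Without replicate 3 the 30 min value was -0.87 (adjusted p = 1.7e-04). The 30 min mean, 15.2 ± 1.40 FPKM (SD, n = 3), was 59.5% of the sham mean, and the 3 kidneys at 30 min lay below the 3 at 28 min. That step, -0.28 on the log2 scale, did not pass (adjusted p = 0.22), and neither did the step from 26 to 28 min of -0.27 (adjusted p = 0.21). In order of mean level the times ran 0, 16, 22, 20, 26, 24, 18, 28 and 30 min, and each overlapped the next except 28 and 30 min.

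Slc4a4, which encodes NBCe1, spans chromosome 5 from 88886818 to 89239653 on the plus strand (GRCm38) with 8 annotated transcripts. The FPKM is 1 value per gene and does not tell apart transcripts from its alternative starts. The 250 bases before the downstream RefSeq start, which lies within the gene, are at chr5:89027716-89027965 (GRCm38.p6, plus strand). They are shown as an alternative promoter of the gene whose kidneys were below all shams in 17 of 18 from 16 to 26 min, with capitals for a CCAAT box on the opposite strand, 26 bases before the start.
Slc4a4 promoter, downstream start: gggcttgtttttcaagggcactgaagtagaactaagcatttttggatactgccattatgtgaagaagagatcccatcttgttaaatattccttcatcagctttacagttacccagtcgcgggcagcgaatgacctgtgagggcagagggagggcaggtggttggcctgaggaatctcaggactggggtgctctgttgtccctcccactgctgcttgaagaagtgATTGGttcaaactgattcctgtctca
This window had a GC content of 48.8%, against 70.4% for Atp1b1 and 67.6% for Slc9a3. The window before the upstream Slc4a4 start, which is not printed, had 82% and 1 GC box on the opposite strand. The 3 printed windows were also searched for the TATA box TATAAA and the half-site of the glucocorticoid receptor, AGAACA, with no match, and 12.4% and 16.1% of the 32851 promoters held them.

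The sham kidneys held Slc4a4 at 102.6, 105.6 and 101.4 FPKM, with an SD of 2.06% of their mean. At 16 min the kidneys held 50.6, 66.3 and 110.4 FPKM, so replicate 3 was above the shams and the others far below. In the same order these kidneys had 72.5%, 87.1% and 103% of the sham sum of proximal tubule markers. With replicate 3, limma gave -0.54 on the log2 scale against 0 min (standard error 0.20, adjusted p = 0.064), and without it -0.85 (adjusted p = 6.1e-04). At 18 min the values were 70.7, 85.9 and 67.1 FPKM, at 20 min 73.1, 81.5 and 75.4 FPKM, and at 22 min 66.6, 73.8 and 63.3 FPKM. At 24 min they were 71.4, 63.9 and 68.8 FPKM and at 26 min 72.8, 98.8 and 71.2 FPKM. Every kidney from 18 to 26 min lay below every sham, at means of 65.8% to 78.5% of the sham mean. Slc4a4 fell at 22 min, with a log2 fold change of -0.62 (adjusted p = 0.023), and at 24 min, with -0.63 (adjusted p = 0.022), and both passed without quantile normalization too, at -0.60 (adjusted p = 0.026) and -0.60 (adjusted p = 0.027). Neither call was firm. Without replicate 1 or 2 of the sham kidneys or replicate 1 or 3 at 22 min the adjusted p-value was 0.055 to 0.080, and without replicate 1 or 2 of the shams or replicate 2 or 3 at 24 min it was 0.051 to 0.073. At 18, 20 and 26 min its values of -0.51, -0.45 and -0.36 did not pass (adjusted p = 0.063, 0.11 and 0.19). In fits of the 2 times alone those at 18 and 20 min passed, and that at 26 min did not.

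At 28 min Slc4a4 was at 72.0, 59.3 and 60.9 FPKM and at 30 min at 58.8, 74.1 and 48.7 FPKM. It fell against 0 min at both times, with log2 fold changes of -0.71 (adjusted p = 0.0058 from limma) and -0.75 (adjusted p = 0.0033). Without replicate 3 the 30 min value was -0.63 (adjusted p = 0.022). Its means there were 62.1% and 58.7% of the sham mean, and 28 and 30 min overlapped each other. In FPKM all kidneys of both times lay below all shams. The 30 min kidneys overlapped each time from 16 to 26 min. Those at 28 min did so too except at 20 min, where the lowest kidney held 73.1 FPKM. The step from 26 to 28 min, -0.34, did not pass (adjusted p = 0.26). In order of mean level the times ran 0, 26, 20, 16, 18, 24, 22, 28 and 30 min, and each overlapped the next except 0 and 26 min.

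**Figure D3:**
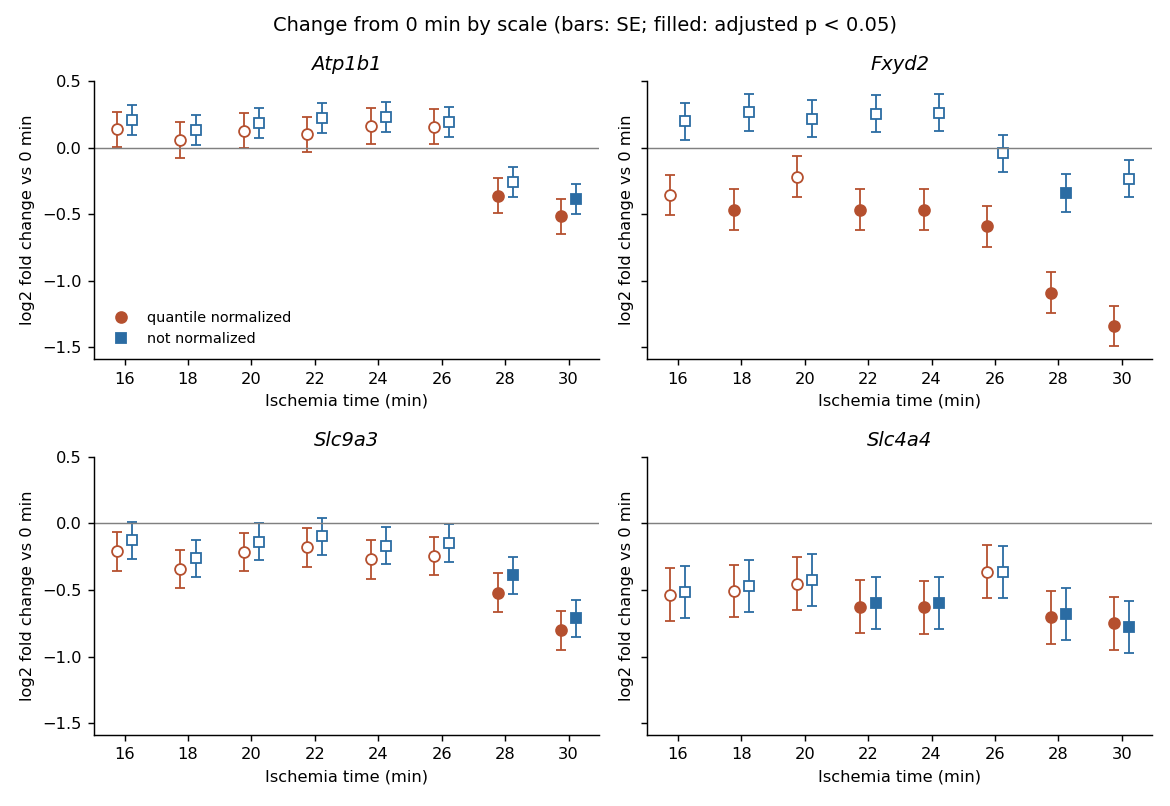
Log2 fold change from 0 min (vertical axes) against ischemia time in min, with SE from limma, for quantile normalized values (circles) and values without that step (squares), where filled symbols passed at an adjusted p-value under 0.05. The scales lie close together for Atp1b1, Slc9a3 and Slc4a4, and on opposite sides of 0 from 16 to 24 min for Fxyd2.

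Counted over the comparisons, all 4 genes passed as lower at 28 min and at 30 min against 0 min, where 23.6% and 25.4% of all tested genes were called lower. Without quantile normalization 3 of 4 passed at 28 min, all but Atp1b1, and 3 of 4 at 30 min, all but Fxyd2, against backgrounds of 17.5% and 20.4%. Without replicate 3 at 30 min the count there was again 4 of 4, on either scale. As DEGs only Fxyd2 was called at 28 and 30 min, with the scale limits given above, against 4.21% and 5.59% of tested genes called as lower DEGs. Over all genes, 49.1% of the calls at 28 min and 48.5% of those at 30 min were lower, against 36.3% and 38.6% without quantile normalization. From 16 to 26 min the lower calls were 50.5% to 54.7% of all, against 25.9% to 31.6%. The median log2 fold change of all genes without that step stayed between 0.03 and 0.05 in the comparisons with 0 min.

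From 26 to 28 min both pump subunits passed as lower, 2 of 4 genes, against 8.52% of all genes, and without quantile normalization Atp1b1 alone passed, against 8.41%. Between 28 and 30 min 0 of 4 passed in limma, where 6.77% of all genes were called lower. At an unadjusted p-value under 0.05 in limma it was also 0 of 4, against 4872 of the 18188 genes in either direction. At the shorter times the count of genes lower than at 0 min was 0 of 4 at 16 min (background 9.61%), 1 of 4 at 18 min (15.2%), 0 of 4 at 20 min (12.1%), 2 of 4 at 22 min (15.4%), 2 of 4 at 24 min (14.8%) and 1 of 4 at 26 min (15.2%). At an unadjusted p-value under 0.05, limma gave 2 of 4 at 16 min and 1 of 4 at 20 min, where 5796 and 6394 of the 18188 genes had such a p-value in either direction. The Fxyd2 calls at 18, 22 and 24 min go against its mean FPKM, and the one at 26 min, where its mean was 97.7% of sham, was not made without quantile normalization. The other calls with all kidneys are Slc4a4 at 22 and 24 min. Leaving out replicate 3 of the time gave 2 of 4 at 16 min, Fxyd2 and Slc4a4, and 1 of 4 at 20 min, Fxyd2. The share of all genes in those fits is not given here. For the slope over the 18 kidneys from 16 to 26 min 0 of the 4 genes passed in limma, against 0.0110% of all genes. At an unadjusted p-value under 0.05 it was 0 of 4, against 1602 of the 18188. The slopes were between -0.020 and 0.0054 on the log2 scale per min.

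The genes were also compared with each other within kidneys, as the difference of their normalized log2 values, by an exact permutation test of 3 against 3 kidneys, two-sided, whose smallest p-value is 0.1, with 16 tests in all. Slc4a4 minus Atp1b1 differed by -0.67 between 0 and 16 min, or -0.89 without replicate 3 at 16 min, and by -0.52 between 0 and 26 min, and in both the kidneys of the 2 times did not overlap (exact permutation p = 0.1, adjusted 0.18). At 30 min it differed from 0 min by -0.23 with overlap, and the sign turned without replicate 3, to 0.081. Between 26 and 28 min it differed by 0.18, again with overlap. Slc9a3 minus Atp1b1 differed from 0 min by -0.35 at 16 min, -0.40 at 26 min and -0.29 at 30 min, and between 26 and 28 min by 0.24 (each exact permutation p = 0.1, adjusted 0.18). Without replicate 3 the 16 min value was -0.40 and the 30 min value -0.17. The value between 26 and 28 min was 0.21 without quantile normalization, with overlap (exact permutation p = 0.2, adjusted 0.44). Slc9a3 and Slc4a4 act on opposite membranes of the proximal tubule cell. Slc9a3 minus Slc4a4 differed by 0.33, 0.12 and -0.05 at 16, 26 and 30 min against 0 min and by 0.07 between 26 and 28 min, with overlap each time, and leaving out 1 kidney could turn the sign of each of these 4 values. Fxyd2 minus Atp1b1 differed from 0 min by -0.50 at 16 min, -0.75 at 26 min and -0.83 at 30 min, and without quantile normalization by -0.01, -0.24 and 0.15, so that the direction at 30 min turned. Without replicate 3 the normalized values were -0.51 at 16 min and -0.67 at 30 min. Between 26 and 28 min it differed by 0.02, with overlap. The smallest adjusted p-value of the 16 permutation tests was 0.18.

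A ratio of the 2 pump subunits within each kidney was looked at after the values were seen and is given with no test. Fxyd2 to Atp1b1 in FPKM was 2.71 to 3.10 in the shams and 2.19 to 3.64 in the 18 kidneys from 16 to 26 min, where 3 lay above all shams and 4 below. It was 2.55 to 2.95 at 28 min and 3.13 to 3.31 at 30 min. At 30 min all 3 kidneys were above the shams.

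**Figure D4:**
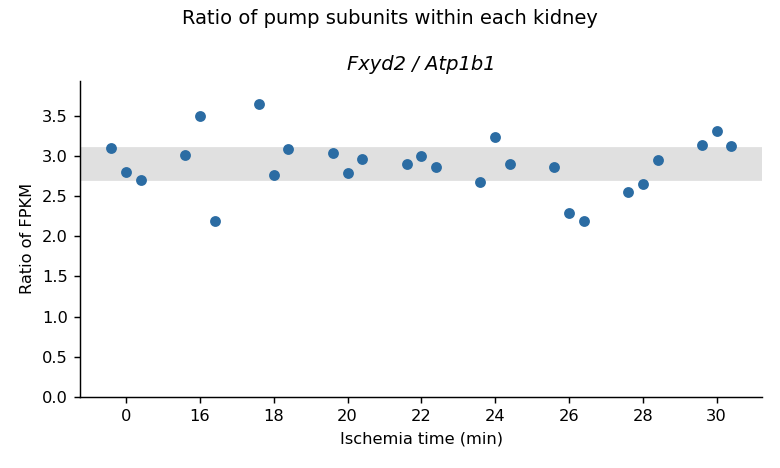
Ratio of Fxyd2 to Atp1b1 in FPKM within each kidney (vertical axis, from 0) against ischemia time in min, with the 9 times equally spaced and the range of the 3 sham kidneys in grey. The 3 kidneys at 30 min lie above the band.

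The genes most alike in pattern were taken by Pearson's r of the normalized log2 values over the 27 kidneys, among 12345 other genes of at least 1 FPKM on average. These values share the 9 ischemia times, so r follows the differences between times, and it is given as a description. For Atp1b1 they were Sostdc1 (r = 0.93), Dnajb12, Slc5a1, which encodes the glucose transporter SGLT1, Fam81a and Ogdh, a citric acid cycle gene. For Slc9a3 they were Dync2h1 (r = 0.92), Tbc1d32, Esr1, Mme, which encodes the brush border enzyme neprilysin, and Pex7. For Slc4a4 they were Enpp2 (r = 0.89), which encodes autotaxin, Ngly1, Pde8a, Fam107b and Evi5. For Fxyd2 they were Sdhc (r = 0.95), a subunit of succinate dehydrogenase, Smarca2, Tbcel, Cndp1 and Ivd. Without quantile normalization, 3 of 5 were again among the first 5 for Atp1b1, 4 of 5 for Slc9a3 and 2 of 5 for Slc4a4. For Fxyd2 0 of 5 were, with r for Sdhc at 0.71, so its list belongs to the normalized scale.

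Of the other 13 genes that encode pump subunits and FXYD proteins, 4 rose, 1 fell and 8 did not pass at 30 min against 0 min, with a median log2 fold change of 0.04 against 0.00 over all genes. Of all tested genes 26.9% were called higher and 25.4% lower in that comparison, so the count that rose was near the background. The beta subunit Atp1b3 moved in the other direction from Atp1b1. It rose from 57.6 ± 2.97 FPKM (SD, n = 3) to 71.7 ± 0.866 FPKM at 28 min and 75.4 ± 4.57 FPKM at 30 min. Its log2 fold change was 0.30 from 26 to 28 min (adjusted p = 0.0037 from limma) and 0.36 at 30 min against 0 min (adjusted p = 1.2e-04). Fxyd5, an FXYD protein also known as dysadherin, was at 12.9 ± 2.15 FPKM in the shams and 41.1 ± 9.56 FPKM at 30 min and rose by 1.51 on the log2 scale (adjusted p = 7.7e-06 in limma). Fxyd3 averaged 0.553 FPKM in the shams and 4.61 ± 2.65 FPKM at 30 min and rose by 1.65 (adjusted p = 0.0090 in limma). The fourth to rise was below 1 FPKM. Without quantile normalization 4 again rose and 0 fell. At 28 min against 0 min 3 rose and 2 fell (backgrounds 24.5% and 23.6%). From 26 to 28 min Atp1b3 alone rose (background 10.8%) and 0 of 13 fell (background 8.52%). At an unadjusted p-value under 0.05 in limma, 2 rose and 1 fell, against 5635 of the 18188 genes in either direction.

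Among 21 other sodium-proton exchangers, bicarbonate transporters and carbonic anhydrases, 11 fell, 4 rose and 6 did not pass at 30 min against 0 min, where 25.4% of all genes were called lower and 26.9% higher. Without quantile normalization 8 of these 11 fell, and the 4 rose with 2 more. The median log2 fold change of the list was -0.10, or -0.08 without quantile normalization. The membrane-bound carbonic anhydrases Car14 and Car4 fell furthest in this list. Car14 went from 77.1 ± 2.28 FPKM (SD, n = 3) to 6.11 ± 0.960 FPKM at 30 min (log2 fold change -3.54, adjusted p = 7.0e-09 from limma) and Car4, at 149 ± 10.6 FPKM in the shams, was at 17.2 ± 3.48 FPKM (log2 fold change -3.06, adjusted p = 4.7e-10). Car12 had a log2 fold change of -1.19, and cytosolic Car2 one of 0.33 in the other direction. Among the carriers, the anion exchanger Slc4a1 had -2.51, Slc9a8 -1.83, Slc4a9 -0.92 and Slc9a2 -0.37. Of these Slc9a2 did not pass without quantile normalization (-0.26, adjusted p = 0.14 in limma). Slc9a5, Slc9a4 and Slc4a2 rose by 0.70, 0.43 and 0.26 on the log2 scale. Slc9a4 had the other sign at 28 min against 0 min, at -0.30 (adjusted p = 0.047 in limma), which did not pass without quantile normalization (-0.20, adjusted p = 0.19). From 26 to 28 min 8 of 21 fell on both scales, against 8.52% of all genes, and 0 rose, against 10.8%. At an unadjusted p-value under 0.05 in limma 8 fell and 0 rose, against 5635 of the 18188 genes in either direction. Among those that fell were Car14 (-1.78), Car4 (-1.55), Slc4a1 (-1.41), Slc9a2 (-0.63), Slc4a9 (-0.62), Car12 (-0.60) and Slc4a3 (-0.38). The Slc4a3 call was lost under 4 of the alternatives, at adjusted p-values of 0.051 to 0.055, and that of Car12 in a fit of the 2 times alone (adjusted p = 0.16). Slc9a3 and Slc4a4, with -0.27 and -0.34 in the same comparison, did not pass.

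Of 11 partners and regulators of these transporters, 5 fell, 2 rose and 4 did not pass at 30 min against 0 min, beside the 25.4% lower and 26.9% higher over all genes. Pdzk1, a scaffold of apical transporters, was at 459 ± 10.1 FPKM in the shams and fell to 144 ± 44.4 FPKM, a log2 fold change of -1.79 (adjusted p = 9.7e-08 in limma). Ahcyl1, which encodes the NBCe1 regulator IRBIT, fell by 0.45 on the log2 scale. Hnf4a, a transcription factor of proximal tubule cells, fell by 0.61. Ezr, which encodes ezrin and links NHE3 complexes to actin, rose by 0.95, and Sgk1, a kinase that promotes sodium transport, rose by 1.49. The 7 that passed also did so without quantile normalization in the same direction. From 26 to 28 min Pdzk1 (-0.76) and Ahcyl1 (-0.26) fell and Ezr (0.32) rose.

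**Figure D5:**
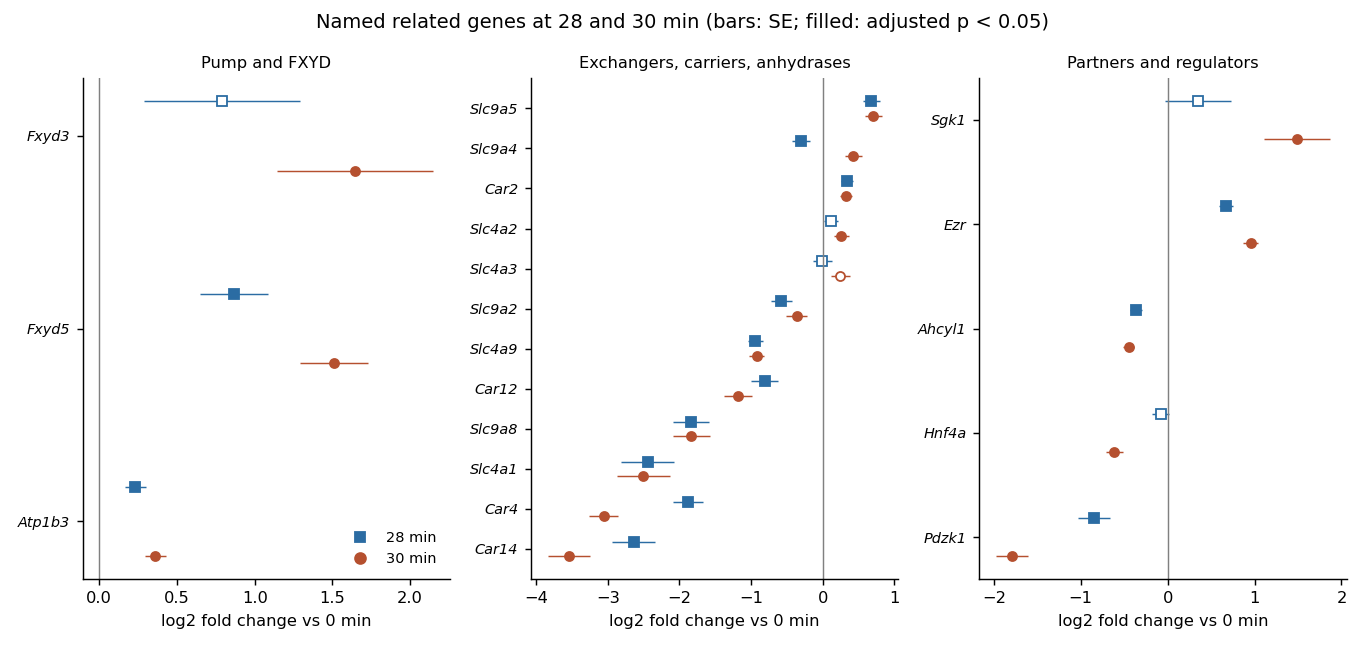
Log2 fold change against 0 min (horizontal axes, with SE from limma) of related genes named in the text at 28 min (squares) and 30 min (circles), by list, where filled symbols passed at an adjusted p-value under 0.05. Car14 and Car4 lie furthest below 0 and Fxyd3, Fxyd5 and Sgk1 furthest above it at 30 min.

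Markers of several tubule segments were also lower at 28 and 30 min. The summed level of 7 proximal tubule genes was 3347 to 3625 FPKM in the shams, 81.3% to 90.7% of that on average from 16 to 26 min, 39.5% at 28 min and 23.0% at 30 min, and 6 of 7 fell at 30 min with a median log2 fold change of -2.46. Slc9a3 and Slc4a4, at 59.5% and 58.7% of sham at 30 min, were above that share. The 4 markers of the thick ascending limb summed to 1681 to 1841 FPKM in the shams, 36.5% of the sham mean at 28 min and 62.7% at 30 min. There the sum ran from 529.5 to 2254 FPKM, with the highest value in replicate 3, which also had the highest Atp1b1 and Fxyd2 of its group. Distal convoluted tubule markers were at 50.0% and 50.7% of sham at 28 and 30 min, and collecting duct markers at 60.8% and 100%. The last value rests on replicate 3, at 164% of sham, with the other 2 kidneys at 66.2% and 70.4%. The summed level of 6 leukocyte genes was 25.8 to 28.4 FPKM in the shams and 52.3 to 58.0 FPKM at 30 min. There 3 of the 6 rose (Cd68, S100a8 and S100a9), Ptprc and Csf1r fell and 1 did not pass. Over all genes 26.9% were called higher and 25.4% lower in that comparison. At 30 min 3 fibroblast genes were at 372% of sham, below their 900% at 24 min, 4 endothelial genes at 169% and 3 podocyte genes at 182%. The part of these shifts in the changes of the 4 genes was not tested.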

How the data were processed

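Left kidneys of 27 mice, 3 at each of 9 ischemia times, were taken from the labels as separate mice of their group. The authors deposited 1 table of FPKM per gene and kidney, made from total RNA libraries run on a DNBSEQ-G400 sequencer; the submitters' processing notes name Bowtie2, RSEM, DESeq2 and the build GRCm38.p6. The study's text calls the unit RPKM. Versions and the annotation are not given in the sources used here. No read counts were used, so the depth of a kidney and the counting error are unknown, and values near 0 are the least precise.

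Genes above 0 FPKM in at least 3 kidneys (18188 of 19392) were taken to log2(FPKM + 1), quantile normalized over the 27 kidneys and fitted in limma 3.58.1 (R 4.3.3) with 1 mean per time, moderated variances and p-values adjusted by the Benjamini-Hochberg method over all tested genes. Contrasts were each of 8 times against 0 min, 28 against 26 min, 30 against 28 min, and a slope over 16 to 26 min. Exact permutation tests used scipy 1.17.1 and Python 3.11.15. The fits were tested on simulated data with planted changes. The fit was repeated with a pseudocount of 0.1 FPKM, without quantile normalization, after rescaling to TPM, with a floor of 1 FPKM in 3 kidneys, without a filter, on only the 2 groups compared, with a variance trend, with the replicate number as a block, and without each kidney in turn. Leaving out replicate 3 at 30 min together with quantile normalization, and repeating the search for similar genes without that step, were added after seeing the data.

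The 4 genes and all lists were chosen with earlier results of these data known. Named genes were the 4, the 5 tested genes most correlated with each, and members of 3 lists of related genes that passed from 26 to 28 min or at 30 against 0 min, with those under 1 FPKM given by count only. Coordinates come from GENCODE (GRCm38), and promoters from RefSeq (GRCm38.p6), which held 3 of the 4 genes. Some items of these lists are not reported here.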

Additional observations from a re-analysis of the deposited data

Results flagged for a closer look

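Atp1b1 stood out because the direction of its difference from 0 min differed between ischemia times. All kidneys at 20, 22, 24 and 26 min lay above all shams in FPKM and all kidneys at 28 and 30 min below them. After quantile normalization the upper part of that pattern was incomplete. Replicate 2 at 20 min (10.33 on the log2 scale) and replicate 3 at 22 min (10.25) lay within the sham range of 10.21 to 10.35. Replicate 1 at 24 min equalled the highest sham. The gene and the times were picked for that pattern, so the values between these times describe its size and are no separate evidence for it. At 28 min the log2 fold change was -0.49 against 20 min, -0.46 against 22 min, -0.52 against 24 min and -0.52 against 26 min, the last of which is the comparison given in the report. At 30 min it was -0.64, -0.62, -0.68 and -0.67 against the same 4 times. Without quantile normalization the 8 values were -0.62 to -0.45. The difference from the shams did not itself pass at any of the 4 shorter times. Groups of 3 kidneys were too small for a test of single outlying kidneys.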

How the results depend on the processing

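The pseudocount of 0.1 FPKM and the lack of a filter changed the direction or the call of 0 of the 40 fold changes, and so did the replicate block, where Atp1b1 from 26 to 28 min was again -0.52 (adjusted p = 0.012 in limma). Replicate numbers showed no sign of pairing the kidneys. Of 108 same-numbered pairs 25 correlated above 0.1 (mean correlation 0.0087), and of 216 other-numbered pairs 53 did (mean -0.0046). Whether kidneys shared a batch was not tested. Without quantile normalization, and with TPM after it in each pair, Atp1b1 at 28 against 0 min did not pass (-0.26, -0.28). Fxyd2 turned at 16 (0.20, 0.21), 18 (0.27, 0.24), 20 (0.22, 0.21), 22 (0.25, 0.25) and 24 min (0.26, 0.26) and from 28 to 30 min (0.11, 0.12), and did not pass at 26 min (-0.043, -0.013), at 30 min (-0.23, -0.23) or from 26 to 28 min (-0.30, -0.34). The difference of Fxyd2 and Atp1b1 moved to -0.011 and -0.011 at 16 min, -0.24 and -0.24 at 26 min and 0.15 and 0.15 at 30 min. With a variance trend Fxyd2 did not pass at 18, 22 and 24 min (each -0.47) or from 26 to 28 min (-0.50). Fits of 2 groups alone lost Atp1b1 at 30 min (-0.52) and Fxyd2 at 18, 24 (each -0.47) and 26 min (-0.59), and gained Slc9a3 at 18 (-0.34) and 26 min (-0.25) and Slc4a4 at 18 (-0.51) and 20 min (-0.45). The floor of 1 FPKM, with fewer genes tested, gained Slc4a4 at 16 (-0.54) and 18 min (-0.51). Leaving out 1 kidney changed a call or a direction in these ranges: Atp1b1 at 28 against 0 min -0.43 to -0.27 and against 26 min -0.58 to -0.43; Fxyd2 at 16 min -0.47 to -0.22, at 18, 22 and 24 min -0.55 to -0.33, at 20 min -0.48 to -0.075 and from 26 to 28 min -0.62 to -0.43; Slc9a3 at 16 min -0.35 to 0.042; Slc4a4 at 16 min -0.85 to -0.28, at 22 min -0.68 to -0.58, at 24 min -0.68 to -0.57 and from 28 to 30 min -0.18 to 0.080, or 0.047 without replicate 3 at 30 min and quantile normalization. The sign also turned for 6 differences between genes that overlapped: Slc4a4 minus Atp1b1 at 30 min (-0.45 to 0.081), Slc9a3 minus Slc4a4 at 16 min (-0.041 to 0.52), 26 min (-0.00046 to 0.29), 30 min (-0.25 to 0.12) and from 26 to 28 min (-0.099 to 0.19), and Fxyd2 minus Atp1b1 from 26 to 28 min (-0.090 to 0.088). Slopes ran from -0.0016 to 0.012 per min for Atp1b1, -0.012 to 0.011 for Slc9a3 and -0.010 to 0.023 for Slc4a4. Apart from the construction of each setting, the cause of these moves was not tested.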
